A study of Mus musculus with 6 samples.

Results

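The 50 genes described here act in G2 and mitosis, the stages in which a cell that has copied its DNA divides. They were picked by symbol from the deposited count table, which lists 47069 genes, and all 50 were found. The list holds cyclins and their kinase, the mitotic kinases, the spindle checkpoint, the machinery of anaphase, kinesins, kinetochore proteins, condensins and the transcription factors that drive these genes. All 50 passed the filter on low counts that left 14165 genes for testing.

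The libraries were made from polyadenylated RNA of cells that the study calls myoblasts, the progenitors of muscle fibers. The cells were muscle stem cells sorted from muscle of mdx mice, which lack dystrophin and serve as a model of Duchenne muscular dystrophy, so the control group carries the mdx mutation too. The sort kept cells with the integrins Itgb1 and Itga7 and removed cells with Sca-1, CD45, CD31 or CD11b. The sample records give a growth medium with serum and FGF2. One group received vehicle (DMSO in aqueous buffer), although the series' design text calls it untreated, and the other received 10 μM PSB-KD107, a synthetic agonist of the receptor Gpr18, which the sample records write as PSB-KD-1. Each group had 3 libraries. The records give a treatment of 2 days, whereas the methods give a treatment of under 1 day, so the exposure time is uncertain. The methods state that the myoblasts came from 3 different mice, without saying whether both groups used the same mice, and no label ties a library to an animal; the age and sex of the mice that gave these cells were not stated. For the treated animals of the same study, the methods name male mdx mice on a C57BL/10 background. The question put to these genes was whether PSB-KD107 moved the mitotic programme of the myoblasts.

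As background, a cell enters mitosis when cyclin B binds Cdk1 and phosphatases of the Cdc25 family switch the complex on. Polo-like and Aurora kinases then help to build the spindle, kinesins move chromosomes and microtubules, and the spindle checkpoint holds anaphase back until every kinetochore is attached. The anaphase promoting complex, with Cdc20 and the ubiquitin-conjugating enzyme Ube2c, then marks cyclin B and securin for destruction, and separase parts the sister chromatids. Transcripts of these genes are low in resting and terminally differentiated cells and peak in G2 and mitosis. They are repressed through the DREAM complex and activated by B-Myb (Mybl2) and Foxm1, in part through a promoter element called the CHR. Muscle cells leave the cell cycle for good when they differentiate into fibers. In bulk RNA, fewer dividing cells and less mitotic RNA per dividing cell cannot be told apart.

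The libraries held between 30917613 and 48756794 counts, with TMM normalization factors between 0.974 and 1.03. Values are given as CPM, which are counts scaled to a common library size after this normalization, and 3 counts, taken as the floor of detection for counting error alone, amounted to 0.0596 to 0.0962 CPM. Columns of the table are numbered 1, 2 and 4 in both groups, and these numbers serve only as names. The biological coefficient of variation over all genes tested was 0.356, and no pair of libraries agreed within sampling noise. Across the genes with enough counts to compare, the chi-square per degree of freedom was 19.7 between vehicle libraries 2 and 4, the lowest of any pair. It was 134.6 between vehicle libraries 1 and 2 and 179.2 between vehicle libraries 1 and 4. Vehicle library 1 thus stood apart from vehicle libraries 2 and 4 beyond the mitotic genes too. Such distances were not particular to it, since the PSB-KD107 libraries differed from each other by 146.7 to 226.7. Between vehicle library 1 and PSB-KD107 library 1 the value was 101.3.

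The vehicle libraries did not resemble each other in these genes. The 50 genes together took 0.0796% of all counts in vehicle library 1 (95% Wilson interval 0.0787 to 0.0805), 0.0242% in vehicle library 2 (0.0236 to 0.0247) and 0.0168% in vehicle library 4 (0.0163 to 0.0172). In the PSB-KD107 libraries the share was 0.0408% in library 1 (0.0403 to 0.0414), 0.0194% in library 2 (0.0190 to 0.0199) and 0.0290% in library 4 (0.0285 to 0.0295). These intervals cover counting error only. The mean share was 0.0402 ± 0.0343% with vehicle and 0.0298 ± 0.0107% with PSB-KD107 (SD, n = 3), so that the difference of -0.0104 percentage points was smaller than the SD of either group. Without vehicle library 1 the difference had the opposite sign, 0.0093 percentage points.

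Vehicle library 1 was the highest of the 6 libraries for 48 of the 50 genes, against 17.2% of all genes tested. For 37 of the 50 it was more than 2 times the next library, against 1.19% of all genes tested. The 2 exceptions, Cdc25b and Pttg1, were highest in PSB-KD107 library 1. Vehicle library 4 was the lowest for 35 genes, PSB-KD107 library 2 for 11 and PSB-KD107 library 4 for 4. The vehicle libraries stood in the order 1 above 2 above 4 for 49 of the 50 genes, an order that 29.7% of all genes tested showed, and Cdc25b was the exception. The median gene was 4.82 times higher in vehicle library 1 than in vehicle library 2, and 12.1 times higher than in vehicle library 4. The lowest and highest vehicle libraries differed by more than 5-fold for 38 of the 50 genes, against 4.73% of all genes tested. The PSB-KD107 libraries differed less, by a median of 3.01-fold between the highest and the lowest, and stood in the order 1 above 4 above 2 for 35 genes. All 3 PSB-KD107 libraries lay between the lowest and the highest vehicle library for 34 of the 50 genes, against 10.7% of all genes tested.

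**Figure D1:**
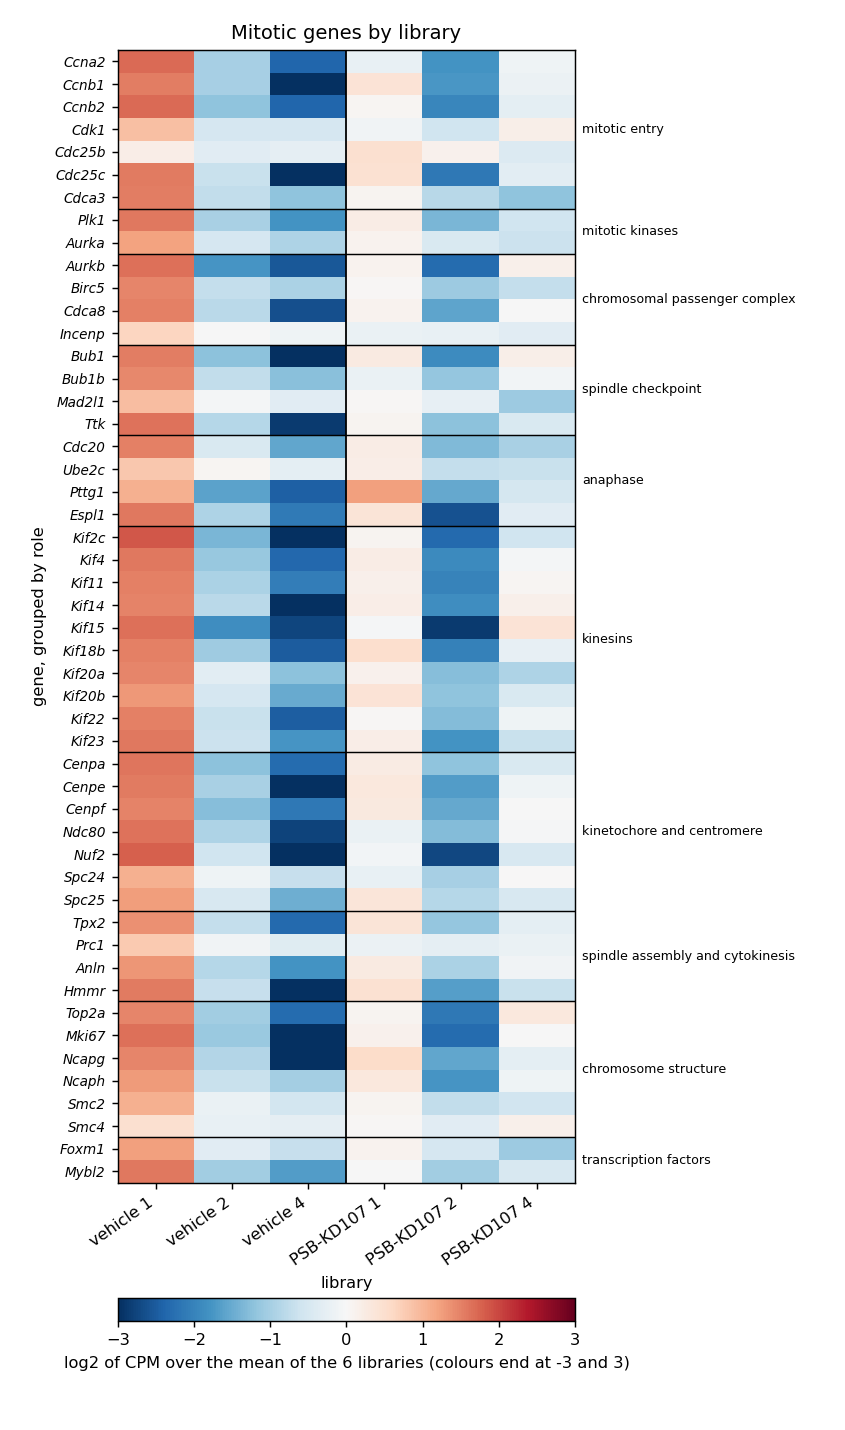
Each row is 1 of the 50 genes and each column a library, and the colour gives log2 of the gene's CPM over its mean in the 6 libraries, with red above and blue below the mean. Vehicle library 1 is red for nearly every gene and vehicle library 4 is blue, while Cdc25b, Incenp, Prc1 and Smc4 stay pale across the columns.

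Mitotic entry is driven by the cyclins, Cdk1 and the Cdc25 phosphatases. Ccnb1 (ENSMUSG00000041431, chromosome 13 from 100778650 to 100786570, GRCm38), which encodes cyclin B1, had 643, 99 and 21 counts in vehicle libraries 1, 2 and 4, and 379, 53 and 184 counts in PSB-KD107 libraries 1, 2 and 4. Its group means were 6.63 ± 8.54 CPM with vehicle and 4.76 ± 2.93 CPM with PSB-KD107 (SD, n = 3). Both groups spanned a wide range and overlapped, with vehicle library 1 far above every other. Ccna2, encoding cyclin A2, had 24.0, 3.72 and 1.43 CPM with vehicle and 6.34, 2.15 and 6.71 CPM with PSB-KD107. Ccnb2, encoding cyclin B2, was 17.1 times higher in vehicle library 1 than in vehicle library 4.

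Cdk1 (ENSMUSG00000019942, chromosome 10 from 69335146 to 69352938), the kinase partner of these cyclins, varied less than they did. It had 14.7, 5.56 and 5.55 CPM with vehicle and 7.29, 5.23 and 8.91 CPM with PSB-KD107, a vehicle range of 2.64-fold. Cdc25b (ENSMUSG00000027330, chromosome 2 from 131186949 to 131198497), a phosphatase that activates Cdk1 before mitosis, had the narrowest vehicle range of the 50 genes. Its values were 30.0, 20.6 and 22.0 CPM with vehicle and 36.8, 28.5 and 19.6 CPM with PSB-KD107, a log2 fold change of 0.23 (SE, standard error, 0.27, edgeR adjusted p = 0.822). Its sign turned without PSB-KD107 library 1, where the log2 fold change was -0.03. Cdc25c, a phosphatase of the same family, had one of the 3 widest vehicle ranges. It had 115, 22 and 1 counts with vehicle and 69, 7 and 29 counts with PSB-KD107, so that vehicle library 4 lay under the floor of 3 counts. The ratio of vehicle library 1 to vehicle library 4 was 94.6 with a 95% counting interval from 16.6 to 3764. The fitted log2 fold change of Cdc25c was -0.58 (SE 1.26, edgeR adjusted p = 0.907), and 1.27 without vehicle library 1. Cdca3, which takes part in the destruction of the mitosis inhibitor Wee1, had 15.9, 3.29 and 2.36 CPM with vehicle and 5.76, 3.05 and 2.37 CPM with PSB-KD107. This gave a fitted log2 fold change of -0.95 (SE 0.80, edgeR adjusted p = 0.754), and 0.40 without vehicle library 1.

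For both mitotic kinases the vehicle libraries stood in the order 1 above 2 above 4. Plk1 (ENSMUSG00000030867, chromosome 7 from 122159439 to 122169873), the Polo-like kinase of spindle assembly, had 10.8, 1.86 and 1.05 CPM with vehicle and 4.23, 1.41 and 2.42 CPM with PSB-KD107. Aurka (chromosome 2 from 172356190 to 172370535), the Aurora kinase of the spindle poles, had 8.55, 2.58 and 1.92 CPM with vehicle and 3.97, 2.69 and 2.37 CPM with PSB-KD107. PSB-KD107 library 1 was the highest of its group for both kinases, and vehicle library 1 was above it. The log2 fold change of Aurka was -0.53 (SE 0.61, edgeR adjusted p = 0.818), and 0.42 without vehicle library 1.

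The chromosomal passenger complex, which corrects faulty attachments of chromosomes to the spindle, held both a steady and some variable genes. Incenp (ENSMUSG00000024660, chromosome 19 from 9872296 to 9899551), its scaffold, had 20.8, 13.2 and 12.1 CPM with vehicle and 11.6, 11.3 and 10.4 CPM with PSB-KD107. It was the only one of the 50 genes whose groups did not overlap, with the PSB-KD107 libraries below, a pattern that 6.59% of all genes tested showed. Its mean was 15.4 ± 4.77 CPM with vehicle and 11.1 ± 0.589 CPM with PSB-KD107 (SD, n = 3). It also had the smallest p-value of the list, with a log2 fold change of -0.47 (SE 0.24, edgeR adjusted p = 0.615, DESeq2 adjusted p = 0.551). Without vehicle library 1 the log2 fold change was -0.19. Birc5, encoding survivin, had 9.95, 2.18 and 1.86 CPM with vehicle and 3.72, 1.70 and 2.20 CPM with PSB-KD107, a log2 fold change of -0.87 (SE 0.73, edgeR adjusted p = 0.752) that was 0.33 without vehicle library 1. Aurkb, the kinase of the complex, and Cdca8, encoding borealin, had vehicle ranges of 18.3-fold and 17.9-fold.

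Among the genes of the spindle checkpoint, Bub1 (ENSMUSG00000027379, chromosome 2 from 127801122 to 127831865), a kinase that recruits checkpoint proteins to kinetochores, had one of the 3 widest vehicle ranges. It had 410, 53 and 5 counts with vehicle and 219, 30 and 147 counts with PSB-KD107. Vehicle library 1 was 67.4 times vehicle library 4 (95% counting interval 28.6 to 208.6). The fitted log2 fold change was -0.37 (SE 1.29, edgeR adjusted p = 0.943), 1.89 without vehicle library 1 and 0.87 in limma-voom. Mad2l1 (chromosome 6 from 66535390 to 66547220), encoding the checkpoint protein Mad2 that restrains Cdc20, had 19.2, 9.65 and 7.88 CPM with vehicle and 10.2, 8.37 and 4.73 CPM with PSB-KD107. The log2 fold change was -0.65 (SE 0.43, edgeR adjusted p = 0.694), and -0.18 without vehicle library 1. Bub1b, encoding the checkpoint protein BubR1, and the kinase Ttk, also known as Mps1, had vehicle ranges of 6.44-fold and 22.6-fold.

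The anaphase genes differed among themselves in how far they varied. Cdc20 (chromosome 4 from 118432901 to 118437352), an activator of the anaphase promoting complex, had 21.3, 5.44 and 2.51 CPM with vehicle and 8.70, 2.98 and 3.82 CPM with PSB-KD107. Ube2c (ENSMUSG00000001403, chromosome 2 from 164769898 to 164778822), its ubiquitin-conjugating enzyme, had 20.5, 12.2 and 9.49 CPM with vehicle and 13.4, 7.09 and 7.40 CPM with PSB-KD107. The fitted log2 fold change was -0.60 (SE 0.39, edgeR adjusted p = 0.686), and -0.22 without vehicle library 1. Exons of Ube2c overlap the gene of the muscle troponin Tnnc2 on the opposite strand, which had 221046 counts over the 6 libraries against 2700 for Ube2c. The strand setting of the counting was not given in the sources used here, so reads of the 2 genes could have been exchanged.

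Pttg1 (ENSMUSG00000020415, chromosome 11 from 43420250 to 43426251), encoding securin, the inhibitor of separase, was 1 of the 2 genes with a fitted fold change above 0. It had 15.7, 2.46 and 1.36 CPM with vehicle and 17.6, 2.57 and 5.23 CPM with PSB-KD107. The libraries numbered 1 were the highest of both groups, and the log2 fold change was 0.38 (SE 1.09, edgeR adjusted p = 0.931). Espl1, encoding separase, had 6.43, 1.15 and 0.496 CPM with vehicle and 2.84, 0.353 and 1.71 CPM with PSB-KD107.

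All 10 kinesins, motor proteins that move along microtubules, had a vehicle range above 5-fold and stood in the order 1 above 2 above 4 in the vehicle libraries. Kif2c (ENSMUSG00000028678, chromosome 4 from 117159639 to 117182639), which takes microtubules apart at the centromere, had 370, 35 and 4 counts with vehicle and 138, 16 and 62 counts with PSB-KD107. Vehicle library 1 was 76.1 times vehicle library 4 (95% counting interval 29.4 to 280.4), and the log2 fold change was -1.08 (SE 1.37, edgeR adjusted p = 0.837). Without vehicle library 1 it was 1.55, and in limma-voom 0.29. Kif20a, a kinesin of the central spindle and of cytokinesis, had the smallest p-value among the kinesins. It had 22.5, 6.62 and 3.47 CPM with vehicle and 8.90, 3.40 and 4.35 CPM with PSB-KD107, a log2 fold change of -0.97 (SE 0.75, edgeR adjusted p = 0.731) that was 0.14 without vehicle library 1. Kif11, the motor that pushes spindle poles apart, had 16.8, 3.07 and 1.40 CPM with vehicle and 6.60, 1.48 and 6.13 CPM with PSB-KD107. Kif14, at 3 counts in vehicle library 4, had a ratio of vehicle library 1 to vehicle library 4 of 31.8 (95% counting interval 10.6 to 156.3). The other kinesins, Kif4, Kif15, Kif18b, Kif20b, Kif22 and Kif23, had vehicle ranges between 7.04-fold and 20.9-fold.

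The kinetochore links chromosomes to the spindle. Its 7 genes had 75.7, 15.5 and 6.70 CPM in sum in the vehicle libraries and 30.7, 10.4 and 23.9 CPM in the PSB-KD107 libraries. Nuf2 (chromosome 1 from 169497934 to 169531464), a subunit of the Ndc80 complex that holds microtubule ends, had 376, 64 and 5 counts with vehicle and 132, 13 and 72 counts with PSB-KD107. It had the most negative log2 fold change of the 50 genes, -1.20 (SE 1.30, edgeR adjusted p = 0.803), which was 0.75 without vehicle library 1. Spc24 (chromosome 9 from 21755442 to 21760303), of the same complex, varied less, with 7.35, 3.18 and 2.17 CPM with vehicle and 2.98, 1.76 and 3.55 CPM with PSB-KD107. The log2 fold change was -0.61 (SE 0.53, edgeR adjusted p = 0.761), and 0.04 without vehicle library 1. Cenpa, the histone that marks the centromere, the kinesin-like Cenpe, Cenpf, Ndc80 and Spc25 had vehicle ranges between 6.54-fold and 30.5-fold.

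In the group of spindle assembly and cytokinesis, Prc1 (ENSMUSG00000038943, chromosome 7 from 80294450 to 80316259), which bundles microtubules of the central spindle, was steady in the treated cells. It had 24.8, 13.4 and 11.3 CPM with vehicle and 12.8, 12.0 and 12.6 CPM with PSB-KD107, a log2 fold change of -0.40 (SE 0.31, edgeR adjusted p = 0.731). Without vehicle library 1 the log2 fold change was 0.01. Tpx2, an activator of Aurora A, Anln, a scaffold of the contractile ring, and Hmmr, a spindle protein, had vehicle ranges of 13.0-fold, 8.76-fold and 23.5-fold.

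The genes of chromosome structure include the usual markers of dividing cells. Mki67 (ENSMUSG00000031004, chromosome 7 from 135689784 to 135716361), encoding the proliferation marker Ki-67, had 1612, 211 and 34 counts with vehicle and 711, 82 and 472 counts with PSB-KD107. Its means were 16.1 ± 21.8 CPM with vehicle and 9.92 ± 6.34 CPM with PSB-KD107 (SD, n = 3), and the treated libraries lay inside the vehicle range. Top2a (ENSMUSG00000020914, chromosome 11 from 98992943 to 99024189), the topoisomerase that disentangles chromosomes, had 1873, 294 and 113 counts with vehicle and 924, 122 and 781 counts with PSB-KD107. PSB-KD107 library 4 was the highest treated library for Top2a, and library 1 for Mki67. The log2 fold changes were -0.70 for Mki67 and -0.45 for Top2a, and 1.48 and 1.29 without vehicle library 1.

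The condensins, which fold mitotic chromosomes, differed by subunit. Smc4 (ENSMUSG00000034349, chromosome 3 from 69004738 to 69034623), a core subunit, had 66.5, 41.0 and 39.4 CPM with vehicle and 49.0, 37.9 and 53.1 CPM with PSB-KD107. The fitted log2 fold change was the smallest in size of the list, -0.07 (SE 0.25, edgeR adjusted p = 0.944), and 0.21 without vehicle library 1. Smc2 (chromosome 4 from 52439243 to 52488260), its partner, had 26.7, 11.1 and 8.65 CPM with vehicle and 13.3, 7.63 and 8.56 CPM with PSB-KD107. The log2 fold change of Smc2 was -0.65 (SE 0.47, edgeR adjusted p = 0.717), and -0.01 without vehicle library 1. The condensin I subunits Ncapg and Ncaph had vehicle ranges of 30.3-fold and 4.90-fold.

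Of the transcription factors, Foxm1 (ENSMUSG00000001517, chromosome 6 from 128362967 to 128376146), which activates genes of G2 and mitosis, had 21.7, 7.30 and 5.68 CPM with vehicle and 9.84, 6.45 and 4.32 CPM with PSB-KD107. The log2 fold change was -0.75 (SE 0.58, edgeR adjusted p = 0.734), and 0.08 without vehicle library 1. Mybl2, encoding B-Myb, had 3.57, 0.573 and 0.372 CPM with vehicle and 1.17, 0.577 and 0.853 CPM with PSB-KD107. For both factors vehicle library 1 was the highest of the 6.

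**Figure D2:**
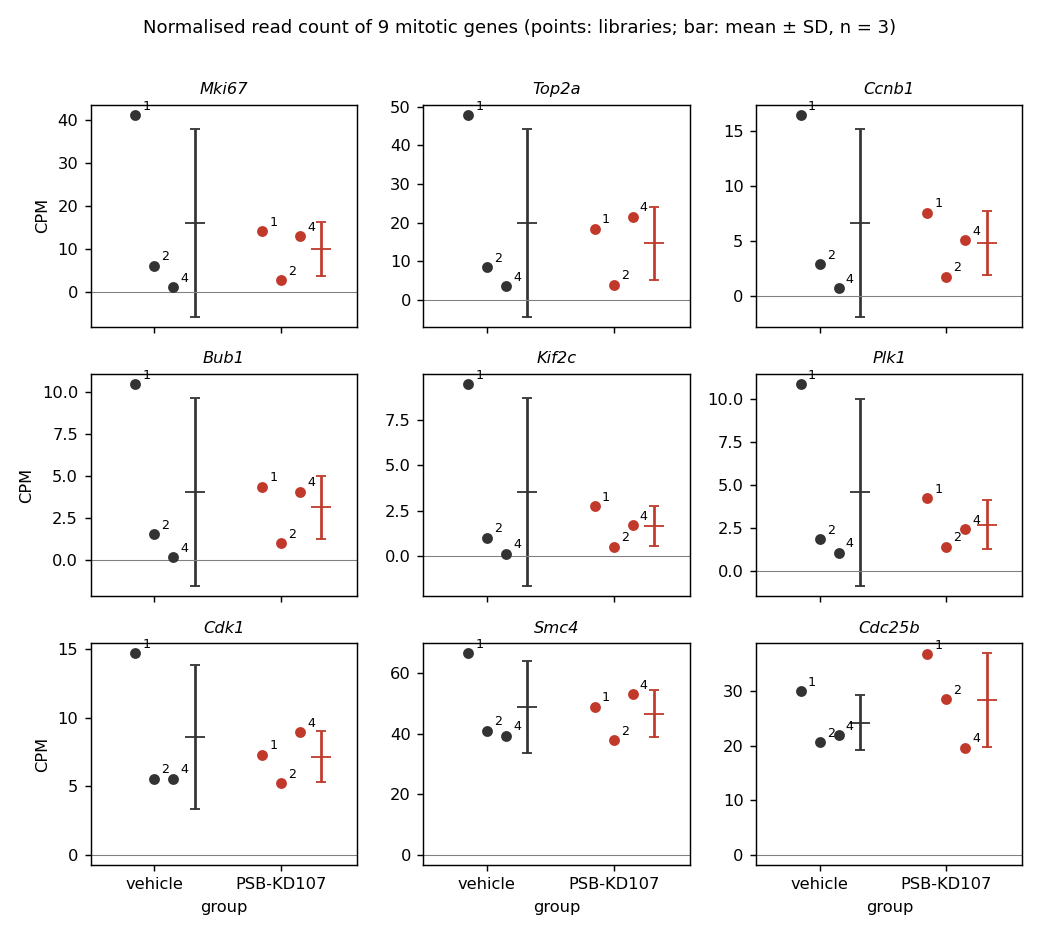
CPM of 9 of the genes in each library, with the library number beside each point and the mean ± SD of each group (n = 3) as a bar, which reaches below 0 where the SD is larger than the mean. For Mki67, Top2a, Ccnb1, Bub1, Kif2c and Plk1 vehicle library 1 stands far above the other 5 libraries, whereas the libraries of Smc4 and Cdc25b lie close together.

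Levels can be compared between genes per length of transcript, as RPKM (CPM divided by the summed exon length in kilobases). The mean over the 6 libraries was highest for Smc4 (9.18 RPKM), Cdc25b (7.04 RPKM) and Ube2c (4.49 RPKM), and lowest for Kif14 (0.102 RPKM). The median gene had 1.12 RPKM, and 27 of the 50 genes reached 1 RPKM. The 12 genes with a vehicle range under 5-fold were Cdc25b, Smc4, Incenp, Ube2c, Prc1, Mad2l1, Cdk1, Smc2, Spc24, Foxm1, Aurka and Ncaph. The 13 genes above 20-fold were Cdc25c, Kif2c, Bub1, Nuf2, Mki67, Kif14, Cenpe, Ncapg, Ccnb1, Hmmr, Ttk, Kif15 and Ndc80. Across the 50 genes, which are not independent, the mean RPKM and the vehicle range had a Spearman rho of -0.624, so the genes with higher levels per length were those that varied less.

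The genes moved together across the libraries. For 43 of the 50, the log2 CPM over the 6 libraries had a Pearson r above 0.9 with the mean of the other 49 genes (median r 0.960), and Cdc25b had the lowest r, 0.465. Over the 5 libraries without vehicle library 1 the count was 32 and the median r 0.943, and Incenp had the lowest r, -0.212. The points share their libraries and normalization, and these values are descriptions. Outside the lists of cell cycle genes, the 10 genes most like the mean profile of the 50 had r between 0.987 and 0.998. The closest was Spag5, which encodes the spindle protein astrin, with 11.2 and 3.61 CPM in vehicle libraries 1 and 2, its lowest value in vehicle library 4, and 5.94, 2.95 and 4.26 CPM with PSB-KD107. Haus1, of the augmin complex of the spindle, and Bgn, encoding the matrix proteoglycan biglycan, were also among the 10. Bgn had 168.3, 28.1 and 13.8 CPM with vehicle and 71.4, 17.2 and 50.7 CPM with PSB-KD107. The others were A930033H14Rik, B3gnt9, 4833420G17Rik, Cacna1i, 2310015K22Rik, Lamb3 and Snhg14. A high r gives a like order and shape, not a like size of change. Haus1 had 9.01, 6.53 and 5.65 CPM with vehicle, and 4833420G17Rik had 25.6, 23.1 and 21.3 CPM.

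PSB-KD107 was compared with vehicle over all 6 libraries. In edgeR's quasi-likelihood fit, 0 of the 50 genes had an adjusted p-value under 0.05, as did 0% of the 14165 genes tested, and 0 of the 50 had an unadjusted p-value under 0.05, against 9.40% of all genes tested. With DESeq2, which gave no adjusted p-value for Aurkb, 0 of the 50 genes were called, against 2.77% of all genes with an adjusted p-value. The smallest adjusted p-value of the list was 0.615. A two-sided exact permutation test of 3 against 3 libraries cannot give a p-value below 0.1, so it could not reach the threshold, and 1 gene, Incenp, was at that minimum. The fitted log2 fold change was below 0 for 48 of the 50 genes, against 50.1% of all genes tested, with a median of -0.60 against -0.001 for all genes. No direction can be read from this count, because it rested on vehicle library 1. Without that library, 4 of the 50 genes were lower and 46 higher with PSB-KD107, with a median of 0.99, and 0 genes passed the test. Without both libraries numbered 1, 12 were lower and 38 higher, with a median of 0.60. With limma-voom, which compares means of log values, 26 were lower and 24 higher, with a median of -0.06. In this fit, which treats the libraries as unpaired, a difference between the groups larger than the spread between replicates was not detected in these genes, and the SE of the log2 fold change reached 1.37. Between libraries of the same number, the vehicle library was the higher for 48 of the 50 genes at number 1, for 45 at number 2 and for 6 at number 4. Whether a number stands for 1 mouse was not given in the sources used here.

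**Figure D3:**
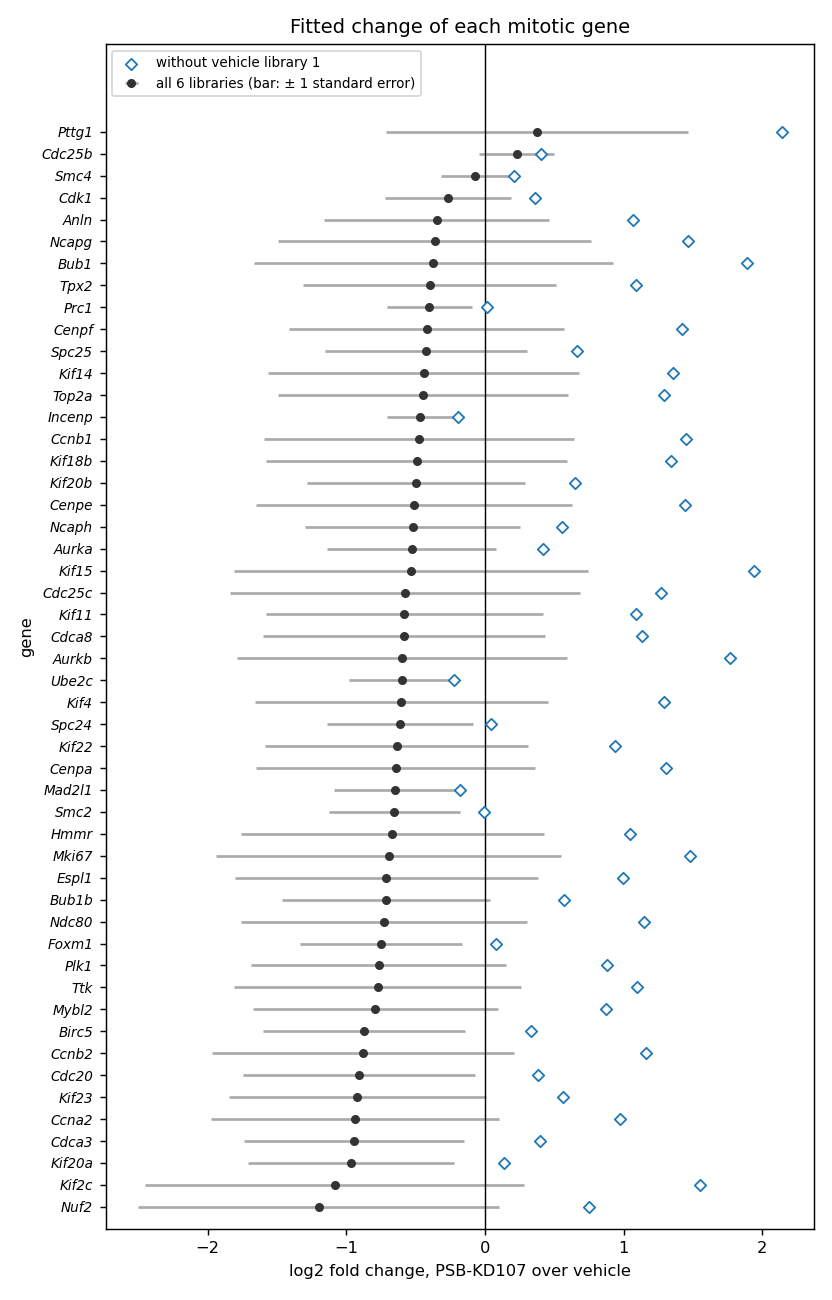
Log2 fold change of PSB-KD107 over vehicle for each of the 50 genes, with all 6 libraries (black points, bar ± 1 standard error) and without vehicle library 1 (open diamonds). The black points lie below 0 for 48 genes and the diamonds above 0 for 46, and the 4 genes whose diamonds stay below 0 are Incenp, Ube2c, Mad2l1 and Smc2.

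Because the genes moved together, their promoters were searched for the CHR and for the CCAAT box, the site of the factor NF-Y that often lies beside it. The RefSeq table of promoters (GRCm38.p6, 250 bases before to 50 bases after each start) held 42 windows for 41 of the 50 genes, and none for Smc4, Incenp, Kif20a, Ccna2, Aurkb, Spc24, Cdc25c, Foxm1 and Tpx2. The letters TTTGAA, the core of the CHR, were found on either strand in 76.2% of these windows and in 17.9% of all 32851 windows. CCAAT was found in 73.8% against 37.4%, and both together in 64.3% against 6.95%. The CHR variants TTTAAA and TTTCGAA were found in 23.8% and 4.76%, against 13.2% and 0.746% of all windows. Of the 41 TTTGAA matches, 31 lay from 50 bases before to 49 bases after the start. Where a CCAAT preceded a TTTGAA, the first letters of the nearest such match and of TTTGAA lay a median of 33 bases apart, against 62 bases over all windows. The 31 genes with a TTTGAA match had a median vehicle range of 12.9-fold and the 10 without one 10.6-fold. A match is a description of letters, not evidence of a bound site. The 7 windows below, 5′ to 3′ on the strand of the gene, were chosen after the matches were seen. In Ccnb2, Plk1, Cdc20, Top2a and Ube2c they show a TTTGAA that lies 25 to 45 bases after a CCAAT, a spacing found in 14 of the 41 genes. They also show Bub1, a wide-ranging gene that held only CCAAT among the letters searched, and the narrowest gene, Cdc25b. Other spellings of the CHR were not searched for. Capitals mark the CHR letters, both variants and the CCAAT box, on either strand. Matches shared letters with another match only in Ube2c, where CCAAT was read on both strands at -186 and -183, and in Cdca8, where TTTGAA ended in the first letter of a CCAAT match.
Ccnb2 (chr9:70421505-70421804, reverse strand): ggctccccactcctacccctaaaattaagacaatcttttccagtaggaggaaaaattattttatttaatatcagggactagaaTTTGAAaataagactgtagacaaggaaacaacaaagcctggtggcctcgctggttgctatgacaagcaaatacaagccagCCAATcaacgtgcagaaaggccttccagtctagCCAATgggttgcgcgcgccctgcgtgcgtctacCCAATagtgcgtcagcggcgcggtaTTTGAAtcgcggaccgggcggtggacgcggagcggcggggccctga
Plk1 (chr7:122159185-122159484, forward strand): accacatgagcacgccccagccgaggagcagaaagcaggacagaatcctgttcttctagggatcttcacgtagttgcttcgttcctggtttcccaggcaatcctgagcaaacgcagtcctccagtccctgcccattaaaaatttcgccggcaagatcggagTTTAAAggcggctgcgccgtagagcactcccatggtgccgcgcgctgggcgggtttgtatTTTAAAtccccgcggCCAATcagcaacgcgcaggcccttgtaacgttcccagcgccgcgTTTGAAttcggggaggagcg
Cdc20 (chr4:118437294-118437593, reverse strand): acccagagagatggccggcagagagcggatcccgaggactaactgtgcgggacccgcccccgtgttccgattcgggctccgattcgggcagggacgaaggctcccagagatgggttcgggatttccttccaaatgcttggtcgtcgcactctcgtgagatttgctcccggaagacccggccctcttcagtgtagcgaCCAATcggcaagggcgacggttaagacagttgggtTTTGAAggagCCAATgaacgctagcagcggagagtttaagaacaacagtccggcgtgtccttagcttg
Top2a (chr11:99024140-99024439, reverse strand): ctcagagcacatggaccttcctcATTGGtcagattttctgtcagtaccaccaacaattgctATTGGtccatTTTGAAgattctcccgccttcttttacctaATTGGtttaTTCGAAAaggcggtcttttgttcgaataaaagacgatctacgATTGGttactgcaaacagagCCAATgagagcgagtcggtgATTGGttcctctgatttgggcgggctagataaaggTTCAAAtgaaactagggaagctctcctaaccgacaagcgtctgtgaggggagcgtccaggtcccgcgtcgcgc
Ube2c (chr2:164769679-164769978, forward strand): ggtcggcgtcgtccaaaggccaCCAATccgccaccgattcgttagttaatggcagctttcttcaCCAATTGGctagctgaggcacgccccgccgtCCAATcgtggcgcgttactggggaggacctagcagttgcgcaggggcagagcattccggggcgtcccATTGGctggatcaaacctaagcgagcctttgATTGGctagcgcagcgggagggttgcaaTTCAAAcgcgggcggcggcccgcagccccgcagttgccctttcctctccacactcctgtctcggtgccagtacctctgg
Bub1 (chr2:127831810-127832109, reverse strand): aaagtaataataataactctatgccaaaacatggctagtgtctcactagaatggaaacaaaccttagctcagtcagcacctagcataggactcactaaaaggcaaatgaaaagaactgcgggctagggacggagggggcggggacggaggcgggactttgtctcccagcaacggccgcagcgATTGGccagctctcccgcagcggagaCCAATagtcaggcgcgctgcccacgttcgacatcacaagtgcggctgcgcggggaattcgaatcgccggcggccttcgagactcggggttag
Cdc25b (chr2:131186698-131186997, forward strand): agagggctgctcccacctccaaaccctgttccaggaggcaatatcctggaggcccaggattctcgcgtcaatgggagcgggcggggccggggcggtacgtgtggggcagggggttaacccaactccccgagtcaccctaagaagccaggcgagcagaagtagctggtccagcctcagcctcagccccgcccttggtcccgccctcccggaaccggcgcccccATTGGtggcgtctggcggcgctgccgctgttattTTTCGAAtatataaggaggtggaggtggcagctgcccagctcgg

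In these windows, with the start counted as 0, Cdc20 held CCAAT at -53 and TTTGAA at -18, Top2a CCAAT at -58 and TTTGAA at -23, and Ube2c CCAAT at -57 and TTTGAA at -29. Top2a varied 13.6-fold between the vehicle libraries and Ube2c 2.16-fold, although their windows hold both motifs at similar places. Bub1 held CCAAT at -68 and -42 and no TTTGAA, and Cdc25b held CCAAT at -28 and TTTCGAA at 6.

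Other genes of the cell cycle were taken from lists that do not overlap the 50. Of 84 other mitotic genes tested, 0 were called by edgeR and 1 by DESeq2, 71 had a log2 fold change below 0, and the median was -0.38, or 0.32 without vehicle library 1. Their vehicle libraries were in the order 1 above 2 above 4 for 65 genes, and 31 had a range over 5-fold. The gene called by DESeq2 was Lmnb1, encoding lamin B1 of the nuclear lamina, with 37.3, 29.2 and 35.1 CPM with vehicle and 16.7, 19.0 and 23.4 CPM with PSB-KD107. Its groups did not overlap, and vehicle library 1 did not stand apart. The PSB-KD107 libraries lay wholly below the vehicle libraries for 5 of the 84 genes, against 6.59% of all genes tested. The fitted log2 fold change was -0.78 (SE 0.17, edgeR adjusted p = 0.253, DESeq2 adjusted p = 0.0109). Wee1, the kinase that inhibits Cdk1, had 6.35, 4.93 and 3.78 CPM with vehicle and 9.40, 7.54 and 7.48 CPM with PSB-KD107, a log2 fold change of 0.70 (SE 0.25, edgeR adjusted p = 0.471). Arhgap11a, which acts on the small GTPase RhoA in cytokinesis, had 20.7, 17.6 and 15.4 CPM with vehicle and 14.1, 15.4 and 13.0 CPM with PSB-KD107 (log2 fold change -0.34, SE 0.16, edgeR adjusted p = 0.598).

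The 50 genes of DNA replication and G1/S varied less. Their median vehicle range was 1.89-fold, against 12.1-fold for the mitotic genes and 1.32-fold for all genes tested, and 6 had a range over 5-fold. A log2 fold change below 0 was found for 39, with a median of -0.22 that was 0.12 without vehicle library 1, and 0 were called by edgeR or DESeq2. The smallest p-value among them was that of E2f2, a transcription factor of S phase entry, with 87.9, 102.7 and 108.1 CPM with vehicle and 59.7, 66.4 and 12.1 CPM with PSB-KD107 (log2 fold change -1.11, SE 0.58, edgeR adjusted p = 0.623). Its groups did not overlap, and PSB-KD107 library 4 was far below the rest. The PSB-KD107 libraries lay wholly below the vehicle libraries for 4 of the 50 replication genes, against 6.59% of all genes tested. Cdt1, which licenses origins, had 8.01, 4.12 and 3.44 CPM with vehicle and 15.6, 6.90 and 6.27 CPM with PSB-KD107 (log2 fold change 0.89, SE 0.49, edgeR adjusted p = 0.638). Orc6, of the origin recognition complex, had 13.0, 12.7 and 13.4 CPM and 10.1, 12.3 and 10.4 CPM (log2 fold change -0.25, SE 0.14, edgeR adjusted p = 0.657). Mcm5, of the replicative helicase, had 12.7, 3.84 and 2.26 CPM with vehicle and 6.06, 1.70 and 3.11 CPM with PSB-KD107, and was named after its values were seen.

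A further list holds the retinoblastoma family, E2F and DP factors, the MuvB core of DREAM, the kinase Dyrk1a and the factors Myb and Mybl1, most of which act in repression through DREAM or the retinoblastoma proteins, while E2f3, Myb and Mybl1 are known as activators. The median vehicle range of the 18 tested was 1.20-fold, and 1, the repressive E2f7, had a range over 5-fold. E2f7 had 153, 20 and 3 counts with vehicle and 40, 5 and 67 counts with PSB-KD107, in the vehicle order of the mitotic genes, and was named after its values were seen. E2f8, its relative, had 52.4, 37.4 and 36.5 CPM with vehicle and 34.4, 27.9 and 108.5 CPM with PSB-KD107, and was likewise named after its values were seen. Of the 18, 11 had a log2 fold change below 0, the median was -0.07, and 0 were called by edgeR or DESeq2. Lin9, of MuvB, had 8.06, 7.16 and 8.16 CPM with vehicle and 5.38, 4.68 and 5.94 CPM with PSB-KD107, with a log2 fold change of -0.55 (SE 0.18, edgeR adjusted p = 0.440). Rb1, the retinoblastoma gene, had 286.0, 223.3 and 246.1 CPM with vehicle and 216.6, 187.0 and 217.8 CPM with PSB-KD107 (log2 fold change -0.28, SE 0.13, edgeR adjusted p = 0.585). E2f4, a repressive E2F, had 66.4, 77.9 and 76.2 CPM and 52.5, 65.7 and 64.0 CPM (log2 fold change -0.28, SE 0.12, edgeR adjusted p = 0.585). The PSB-KD107 libraries lay wholly below the vehicle libraries for 5 of the 18 genes, among them Lin9, Rb1 and E2f4, against 6.59% of all genes tested. They lay wholly above for 2 of the 18, against 1303 of the 14165 genes tested.

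Among 18 CDK inhibitors and genes of the p53 response, 0 were called by edgeR and 1 by DESeq2, and the median log2 fold change was 0.03. The gene called was Cdkn2b, encoding the inhibitor p15, with 15.4, 10.4 and 7.91 CPM with vehicle and 22.8, 20.2 and 41.3 CPM with PSB-KD107 (log2 fold change 1.32, SE 0.37, edgeR adjusted p = 0.361, DESeq2 adjusted p = 0.0306). Sesn2, a stress-induced sestrin, had 34.4, 38.3 and 42.9 CPM with vehicle and 60.7, 72.8 and 45.3 CPM with PSB-KD107 (log2 fold change 0.63, SE 0.19, edgeR adjusted p = 0.407). Trp53, encoding p53, had 62.5, 62.6 and 65.6 CPM and 59.3, 54.7 and 47.0 CPM (log2 fold change -0.25, SE 0.11, edgeR adjusted p = 0.587). Cdkn1c, encoding the inhibitor p57 of muscle cells that leave the cycle, was named after its values were seen, because its vehicle libraries ran in the opposite order to those of the mitotic genes. It had 232.4, 2478 and 3889 CPM with vehicle and 89.4, 1086 and 72.3 CPM with PSB-KD107, so that vehicle library 4 was 16.7 times vehicle library 1, and PSB-KD107 library 2 was the highest of its group. Its part in the mitotic values was not tested.

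**Figure D4:**
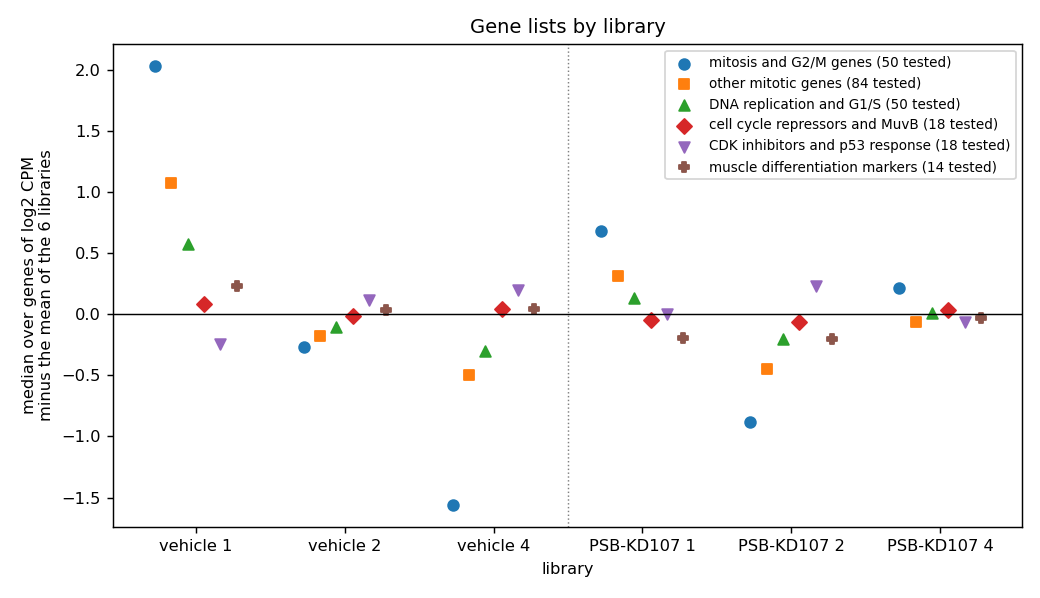
For each list and library, the median over the list's tested genes of log2 CPM minus the gene's mean over the 6 libraries. The mitosis and G2/M genes run from 2.03 in vehicle library 1 to -1.56 in vehicle library 4, the other mitotic and the replication genes take the same order of vehicle libraries over a smaller range, and the median of the list of repressors and MuvB stays near 0.

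The labelled cell type was checked against its markers. Of 9 satellite cell and myoblast markers tested, 0 were called by edgeR and 1, Pax7, by DESeq2, and their log2 fold changes had a median of -0.11. The satellite cell and myoblast markers Pax7, Myod1, Myf5, Des, Itga7 and Cdh15 were present in every library, and Pax7, which marks satellite cells, had 68.8, 49.9 and 60.0 CPM with vehicle and 34.0, 26.8 and 35.1 CPM with PSB-KD107. The log2 fold change was -0.90 (SE 0.17, edgeR adjusted p = 0.209, DESeq2 adjusted p = 0.0019). Myf5 and Myod1 varied with the mitotic genes in the opposite sense within the vehicle group, with 3.57, 18.6 and 21.3 CPM for Myf5 and 515.2, 955.8 and 1060 CPM for Myod1. Cdh15, an adhesion protein of myoblasts, had 637.1, 1183 and 1373 CPM there. In the same group Des, Vcam1 and Sdc4, 3 of the 9 markers tested, stood in the order 1 above 2 above 4, like most of the mitotic genes. Of all genes tested, 29.7% showed that order. Myf5 was not among the 3 of its list with the smallest p-values. With PSB-KD107, Myf5 had 4.23, 40.9 and 26.8 CPM, Myod1 398.7, 764.7 and 522.6 CPM and Cdh15 599.7, 1214 and 571.8 CPM. The log2 fold changes of Myod1 and Cdh15 were -0.59 (SE 0.35, edgeR adjusted p = 0.665) and -0.42 (SE 0.40, edgeR adjusted p = 0.785). The 14 markers of muscle differentiation together stood far above the mitotic genes in every library, so the cells cannot be taken as dividing progenitors alone. The median log2 fold change of these markers was -0.23, with 0 called by edgeR and 2, Mymk and Myh3, by DESeq2. Myh3, the embryonic myosin heavy chain, had between 11840 and 18260 CPM, and Myog, the factor that commits myoblasts to differentiate, had 2042, 2203 and 2158 CPM with vehicle and 1175, 1726 and 1661 CPM with PSB-KD107. Of the fusion proteins, Mymk had 1306, 1320 and 1389 CPM with vehicle and 965.6, 1119 and 1021 CPM with PSB-KD107 (log2 fold change -0.37, SE 0.11, edgeR adjusted p = 0.399). Mymx had 277.9, 221.8 and 204.5 CPM and 165.4, 157.8 and 111.0 CPM (log2 fold change -0.70, SE 0.20, edgeR adjusted p = 0.361). The summed differentiation markers were 45920, 39780 and 40860 CPM with vehicle and 33610, 32430 and 37520 CPM with PSB-KD107. Myh3 was the largest part of this sum, in which PSB-KD107 library 4 was the highest treated library, unlike in the summed mitotic genes. The list also holds Cdkn1c, with 232.4, 2478 and 3889 CPM with vehicle. From vehicle library 2 to 4 Cdkn1c rose by more than the sum did. Without Cdkn1c the vehicle sums thus stand in the order 1 above 2 above 4, like most of the mitotic genes. Taken singly, 7 of the 14 markers stood in the vehicle order 1 above 2 above 4, against 29.7% of all genes tested.

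Markers of other cells that the sort could have let through were low or at 0, but several were at the levels of the mitotic genes, some of which have only a few CPM. The summed level of 9 leukocyte markers lay between 2.45 and 5.26 CPM with vehicle and between 1.04 and 7.35 CPM with PSB-KD107, and Adgre1 had 0 counts in all 6 libraries and Ptprc, encoding CD45, at most 1. Itgam, encoding CD11b, against which the cells were sorted, had 166, 95 and 62 counts with vehicle and 133, 39 and 14 counts with PSB-KD107, and Cd68, a macrophage marker, had 21, 20 and 12 counts and 193, 37 and 8 counts. The 6 endothelial markers summed to between 1.52 and 6.07 CPM with vehicle and between 2.47 and 9.12 CPM with PSB-KD107, with Emcn at 0 in all libraries. Most of that sum was Vwf, the von Willebrand factor, with 4.67, 1.03 and 1.21 CPM with vehicle and 8.31, 2.09 and 2.06 CPM with PSB-KD107, while Pecam1, encoding CD31, had at most 14 counts and Cdh5 at most 25. The 8 fibroblast markers summed to between 1.92 and 5.23 CPM and between 2.31 and 10.7 CPM, with Lum at 0 in all libraries. Ly6a, encoding Sca-1, also a target of the negative sort, had 49, 12 and 5 counts with vehicle and 65, 13 and 304 counts with PSB-KD107, or 8.36 CPM in PSB-KD107 library 4. Cd34 had between 11 and 145 counts and Pdgfra between 19 and 58. Vehicle library 1 was the highest vehicle library in all 3 sums, as it was for the mitotic genes. Of the genes of these lists, 2, 2 and 4 passed the filter, and 0 were called by edgeR or DESeq2. The part of these cells in the mitotic values was not tested.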

How the data were processed

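RNA of 6 libraries (3 vehicle, 3 PSB-KD107) was sequenced in paired-end mode from a directional polyadenylated library. The authors aligned the reads with STAR to mm10, the build also named in the submitters' processing notes, and deposited raw counts per gene, with no normalization. The counting program, annotation and strand setting were not given in the sources used here, so counts of overlapping genes are uncertain (among these genes Ube2c, Ccna2, Cdc20, Cdc25b, Cdca8, Kif20a, Kif4, Ncapg and Prc1 overlap an expressed gene on the opposite strand). Groups were taken from the sample records and column names; the columns numbered 4 match a group but no single record. Gene coordinates and lengths came from GENCODE M21 (GRCm38), which matched 46574 genes.

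In R 4.3.3, genes were filtered with filterByExpr (minimum count 10) and TMM-normalized, and PSB-KD107 was compared with vehicle with edgeR 4.0.16 (quasi-likelihood test, Benjamini-Hochberg adjustment over 14165 genes, threshold 0.05). DESeq2 1.42.0, limma-voom (limma 3.58.1), RLE factors, no filter, an RPKM filter, the replicate number as a block and each library left out were alternatives. Leaving out both libraries numbered 1 was chosen later, after seeing the data. Scripts were first tested on simulated counts. Figures and summaries were made in Python 3.11.15 with pandas 2.3.3. P-values set the difference between the groups against the spread between these libraries, which edgeR, DESeq2 and limma-voom estimate with information shared over genes. Whether this is spread between mice is not known. Correlations used log2 CPM with an offset of 0.1 CPM, and the 10 most alike genes an offset of 0.5 counts.

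The 50 genes and all lists were chosen with earlier results of these data known. Full values were given for the 10 smallest p-values, the 3 highest RPKM, the 3 widest vehicle ranges and the smallest p-value of each of the 10 roles, and from each other list the 3 genes with the smallest p-values (or those tested, if fewer) were named, with their values or range over the libraries. Members named beyond this rule were chosen for their roles.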

Additional observations from a re-analysis of the deposited data

How the results depend on the processing

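EdgeR called 0 of the 50 genes on all 6 libraries, with RLE factors, without the filter on low counts, with the RPKM filter and with any library left out, and DESeq2 and limma-voom called 0 of them on all 6. Of all genes, edgeR called 0 under these settings except without the filter, where it called 8, and DESeq2 called 407. When single libraries were left out, the number of the 50 genes that were lower ranged from 4 to 50, their median log2 fold change from -1.06 to 0.99, that of the other mitotic genes from -0.75 to 0.32, that of the replication genes from -0.36 to 0.12, and the difference in the share of counts from -0.0221 to 0.0093 percentage points. In each case the value above 0, and the 4 lower genes, came without vehicle library 1. Without both libraries numbered 1, 12 genes were lower and the medians were 0.60 for the 50 genes and 0.06 for the other mitotic genes. The RPKM filter left 30 of the 50 genes, of which 28 were lower, and limma-voom gave 26 lower of 50.

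For single genes, the same leave-one-out ranges of the log2 fold change were -0.88 to 0.42 for Aurka, -1.28 to 0.33 for Birc5, -0.94 to 1.89 for Bub1, -0.03 to 0.43 for Cdc25b, -1.24 to 1.27 for Cdc25c, -1.43 to 0.40 for Cdca3, -1.12 to 0.08 for Foxm1, -1.51 to 0.14 for Kif20a, -1.68 to 1.55 for Kif2c, -0.61 to 0.01 for Prc1, -0.20 to 0.21 for Smc4 and -0.93 to 0.04 for Spc24. They stayed below 0 for Incenp (-0.62 to -0.19), Mad2l1 (-0.92 to -0.18), Ube2c (-0.97 to -0.22) and Smc2 (-0.95 to -0.01). Limma-voom turned Bub1 (0.87), Cdc25c (0.54) and Kif2c (0.29). Leaving out both libraries numbered 1 turned Aurka (0.16), Bub1 (1.57), Cdc25c (0.62), Kif2c (0.97) and Smc4 (0.17). The cause of these changes was not tested.

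The library numbers were not taken as pairs, since no label ties a number to a mouse. Deviations from the group means correlated at 0.626, 0.479 and -0.129 for numbers 1, 2 and 4. Between libraries of different numbers they correlated at -0.692 to 0.625, highest for vehicle library 4 with PSB-KD107 library 2. These values do not settle whether the numbers are pairs. With the number as a replicate block on the 4 libraries numbered 1 and 2, 1 degree of freedom is left for each gene. In that fit 36 of the 50 genes were called, against 2456 of all 14400 genes fitted. With the block over all 6 libraries 0 genes were called, 38 of the 50 were lower, their median log2 fold change was -0.12 and Bub1 was at 0.39. DESeq2 with that block called 638 genes and 0 of the 50, with Bub1 at 0.42 and Cdc25c at 0.08. Depth limited Cdc25c and Kif14, which had 1 and 3 counts in vehicle library 4, and 9 of the 50 genes had fewer than 10 counts there.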
